A study of Mus musculus with 4 samples.

Results

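The 10 genes described here are regulators that set or mark the identity of deep-layer projection neurons of the cerebral cortex: Tbr1, Bcl11b, Fezf2, Sox5, Foxp1, Foxp2, Tle4, Ldb2, Zfpm2 and Nr4a2. They were chosen by gene symbol, with earlier results of these data known, and all 10 were present among the 32681 genes of the deposited table. All 10 passed the filter on low counts that left 18110 genes for testing. RNA sequencing covered 4 primary neuronal cultures made from the neocortex of wild-type CD-1 mouse embryos at embryonic day 13, CD-1 being an outbred strain. Of these cultures, 2 received a control short hairpin RNA (shRNA) and 2 an shRNA directed at DcpS, a scavenger enzyme that breaks down the cap structure left at the end of mRNA decay. All 4 cultures were therefore transfected with a hairpin. The sources used here do not give the sequence of the hairpins, the time in culture, the share of cells transfected or the number of litters behind the cultures. The p-values therefore reflect the spread among these 4 samples only, and that spread may be technical.

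Deep-layer neurons are the first projection neurons that the cortex makes, and at embryonic day 13 in the mouse their production is under way. Layer V holds subcerebral neurons, which send axons to the brainstem and spinal cord and depend on Fezf2 and its effector Bcl11b. Layer VI and the subplate hold corticothalamic and early-born neurons, which depend on Tbr1 and Sox5. These regulators restrain one another, so that a loss of one usually shifts neurons toward a neighbouring identity.

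The 4 libraries held 17754768 to 21793685 reads, recovered from the deposited values, and reads for 26847 to 27650 genes. Dcps, the targeted gene, was at 500 and 507 normalised read counts (reads divided by a size factor for each library) in control 1 and 2, and at 114 and 120 in DcpS shRNA 1 and 2. Both DcpS shRNA libraries were thus well below both controls. Its log2 fold change was −2.10 (SE 0.11, limma, Benjamini-Hochberg adjusted p 1.52e-08). Of 18110 genes tested, 5.79% passed an adjusted p of 0.05, 2.14% in the higher and 3.65% in the lower direction. Marker genes of non-neuronal cells were among those called lower, with values given with the cell type markers at the end.

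A hairpin is cut into a short guide RNA, and the first bases of a guide can pair with the 3′ untranslated region (3′ UTR) of other transcripts. A pair of overlapping 7-base words, CACGTGC and ACGTGCA, was searched on the transcript strand of annotated 3′ UTRs. The words were picked with results of these data known, and it is not given whether the hairpin's guide matches them. They were present in 33.1% of scanned genes called lower, in 6.25% of those called higher and in 8.0% of all 13709 scanned genes. Among the deep-layer regulators 2 carried a match, Sox5 with both words joined, as in Dcps, and Bcl11b with ACGTGCA only. The other 8 had none in their annotated 3′ UTRs, which ran up to 4752 bases, in Foxp1. The matches are shown with 10 bases on either side, 5′ to 3′ on the transcript, with the words in capitals (GRCm38, GENCODE M21, all 3 genes on the minus strand).
Dcps, chr9:35124756-35124763: ctatcacctgCACGTGCAtttcacagct
Sox5, chr6:143831946-143831953: gtgtcccgggCACGTGCAtggcaggcat
Bcl11b, chr12:107915112-107915118: tttggcatgtACGTGCAggtacctatt
The Dcps match lies in the 3′ UTR of one annotated coding transcript and in the coding part of another. In Sox5 it starts at base 1311 of a 3′ UTR of 4839 bases, and in Bcl11b at base 282 of 4997. Neither Sox5 nor Bcl11b was called in either direction, as their values below show.

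The comparison asks which transcripts differ in level between cultures given the DcpS shRNA and cultures given the control shRNA. The deep-layer regulators changed little. Only Zfpm2 rose (log2 fold change 0.30, SE 0.07), none fell, and the largest differences among the other 9 were in Nr4a2 (−0.28, SE 0.09) and Tle4 (−0.17, SE 0.06), neither of which passed the test. So 1 of 10 was called, against 5.79% of all genes tested and 8.22% of the 7997 tested genes with a mean level in the same range (17.3 to 179 CPM, reads scaled to a common library total). Across the 10 the median log2 fold change was −0.03 and the median size, whatever the sign, 0.10. Over all genes tested these medians were 0.0007 and 0.11. Among the 7997 genes in the same range of levels the median size was 0.08, somewhat below that of the regulators. Without control 2 the count of called regulators was 0, since the call of Zfpm2 ended, and DESeq2 also called 0. At an unadjusted p under 0.05 the count was 3 in limma with all libraries, where 3380 of all 18110 genes tested were under 0.05. In DESeq2 it was also 3, a count without a share over all genes beside it, so no excess can be read from it. With all libraries, edgeR called Zfpm2. With 2 samples against 2, an exact permutation test of 1 gene cannot give a p below 0.333.

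In 9 of the 10 regulators the values of the groups did not overlap, 6 being lower and 3 higher in both DcpS shRNA libraries; Tbr1 was the exception. Over all genes tested, 48.4% had groups that did not overlap, and 53.8% of those in the same range of levels. No test was made of this count. The differences behind it were small: for 8 of the 10 the 95% confidence interval of the change lay within 1.25-fold either way, and for all 10 within 1.5-fold. The smallest change called among all genes was 0.18 on the log2 scale, a size that only Zfpm2 and Nr4a2 exceeded among the 10.

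**Figure D1:**
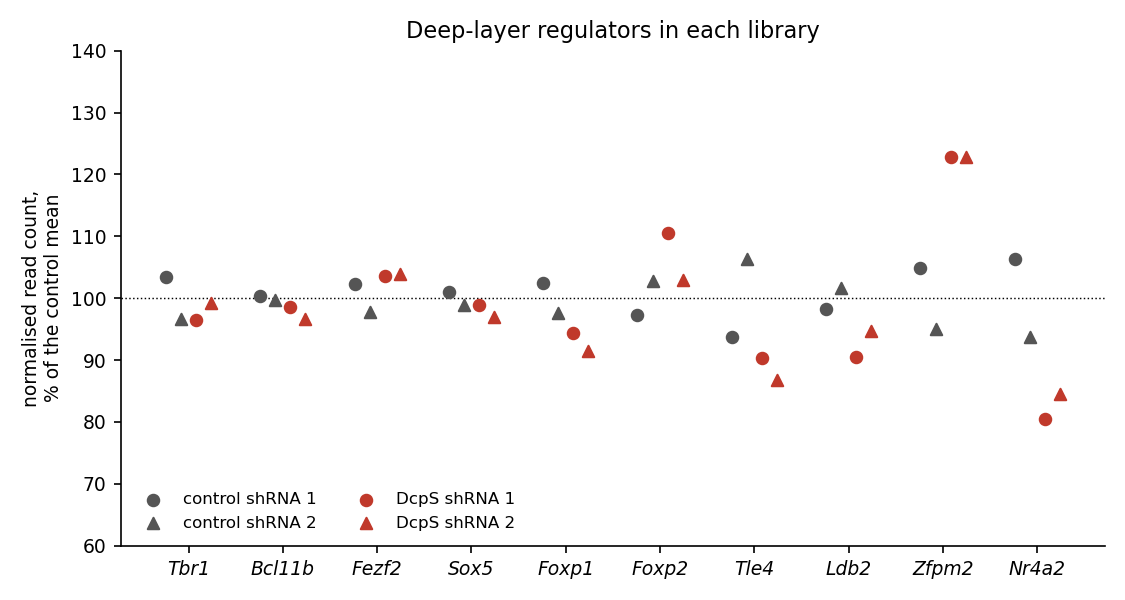
Normalised read count of each deep-layer regulator in each of the 4 libraries, as a percentage of the mean of the 2 control libraries (dotted line at 100). Grey marks are control shRNA and red marks DcpS shRNA, circles replicate 1 and triangles replicate 2. Both DcpS shRNA libraries lie above both controls for Zfpm2 and below both for Nr4a2, and the remaining genes stay closer to the line.

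Fezf2, the zinc finger factor that directs young neurons to the subcerebral fate, lies on chromosome 14 (12342094 to 12348189). It was at 2105 and 2012 normalised read counts in control 1 and 2 and at 2131 and 2139 in DcpS shRNA 1 and 2. The DcpS shRNA libraries were slightly above the controls, and the means differed by less than the controls did from each other. Its log2 fold change was 0.05 (SE 0.05), with a 95% interval of 0.958 to 1.12 in fold terms (limma, Benjamini-Hochberg adjusted p 0.667).

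Bcl11b, also known as Ctip2, is the zinc finger factor that acts after Fezf2 in the growth of subcerebral axons (chromosome 12, 107910403 to 108003602). The controls had 2270 and 2255 normalised read counts and the DcpS shRNA libraries 2230 and 2186. All 4 libraries thus lay close together, with both DcpS shRNA libraries a little lower. The mean was 2263 ± 10.5 in the controls and 2208 ± 31.0 with DcpS shRNA (SD, n = 2 per group), and the 95% interval of the fold ran from 0.903 to 1.05 (limma, Benjamini-Hochberg adjusted p 0.791).

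Ldb2 is a cofactor that bridges LIM-domain transcription factors and marks subcerebral neurons (chromosome 5, 44472132 to 44799680). It was at 1493 and 1543 normalised read counts in the controls and at 1375 and 1437 with DcpS shRNA. Both DcpS shRNA libraries were lower, with a log2 fold change of −0.11 (SE 0.06) that did not pass (limma, Benjamini-Hochberg adjusted p 0.322). A fall beyond 0.851 of the control level lay outside its 95% interval. The 3 regulators tied to subcerebral neurons thus differed in sign, Fezf2 being slightly higher and Bcl11b and Ldb2 slightly lower, and none was called.

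Tbr1 is the T-box factor that layer VI neurons need for their corticothalamic identity (chromosome 2, 61802930 to 61814114). It was at 3640 and 3404 normalised read counts in the controls and at 3398 and 3494 with DcpS shRNA, and it was the one regulator whose groups overlapped. Its log2 fold change was −0.03 (SE 0.05), with a 95% interval of 0.905 to 1.06 in fold terms (limma, Benjamini-Hochberg adjusted p 0.828). The sign turned to 0.018 without control 1.

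Sox5 is a SoxD factor that controls the order in which subplate, layer VI and layer V neurons take on their identities (chromosome 6, 143828425 to 144781977). It was at 3626 and 3548 normalised read counts in the controls and at 3545 and 3477 with DcpS shRNA. The groups were barely apart, the lower control and the higher DcpS shRNA library being within a few counts. Its log2 fold change was −0.03 (SE 0.05), and the 95% interval, 0.908 to 1.05 in fold terms, was about as narrow as those of Tbr1 and Bcl11b. The exons of Sox5 share 1330 bases with those of an antisense gene, Sox5os1, and the use of strand in counting is not given.

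Tle4, a Groucho-type corepressor found in corticothalamic neurons (chromosome 19, 14448150 to 14598051), was at 2228 and 2528 normalised read counts in the controls and at 2147 and 2062 with DcpS shRNA. Control 2 stood highest, and control 1 was nearer to the DcpS shRNA libraries than to control 2. The mean was 2378 ± 212 in the controls and 2104 ± 60.2 with DcpS shRNA (SD, n = 2 per group), a log2 fold change of −0.17 that did not pass (limma, Benjamini-Hochberg adjusted p 0.130). Without control 2 it was −0.08, and without control 1 −0.26.

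Foxp1 and Foxp2 are forkhead factors that can bind DNA as dimers with each other. Foxp2 marks layer VI neurons (chromosome 6, 14901349 to 15441977), and Foxp1 is found in several cortical layers and in the striatum (chromosome 6, 98925338 to 99522721). Foxp1 was at 1319 and 1257 normalised read counts in the controls and at 1215 and 1179 with DcpS shRNA. Foxp2 was at 323 and 342 in the controls and at 367 and 342 with DcpS shRNA, control 2 and DcpS shRNA 2 being almost equal. The log2 fold changes had opposite signs, −0.11 (SE 0.06) for Foxp1 and 0.09 (SE 0.09) for Foxp2, and neither passed (limma, Benjamini-Hochberg adjusted p 0.367 and 0.664). The difference between the 2 genes was not tested. The exons of Foxp1 share 300 and 135 bases with those of Gm20696 and Gm49348 on the same strand, and how such reads were assigned is not given.

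Zfpm2, also known as Fog2, is a zinc finger cofactor of GATA and COUP-TF factors and a marker of corticothalamic neurons (chromosome 15, 40655035 to 41104592). It was at 821 and 744 normalised read counts in control 1 and 2 and at 961 in each of the DcpS shRNA libraries. Both DcpS shRNA libraries were above both controls, and the mean rose from 782 ± 54.8 to 961 ± 0.151 (SD, n = 2 per group), or to 123% of the control mean. The log2 fold change was 0.30 (SE 0.07), with a 95% interval of 1.11 to 1.36 in fold terms (limma, Benjamini-Hochberg adjusted p 0.0147). Control 2 was the lowest library, and without it the log2 fold change was 0.23 and no longer passed (limma, Benjamini-Hochberg adjusted p 0.189). DESeq2 gave 0.30 with an adjusted p of 0.108.

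Nr4a2, also known as Nurr1, is an orphan nuclear receptor that marks the subplate and early-born neurons and that neuronal activity can induce (chromosome 2, 57106830 to 57124003). It was at 519 and 457 normalised read counts in the controls and at 392.5 and 412.4 with DcpS shRNA. Both DcpS shRNA libraries were lower than both controls, and the means were 488 ± 43.4 and 402 ± 14.0 (SD, n = 2 per group). The log2 fold change of −0.28 (SE 0.09) did not pass (limma, Benjamini-Hochberg adjusted p 0.0847), and its 95% interval was 0.726 to 0.941 in fold terms. Of its paralogs, Nr4a3 fell, from 1325 and 1349 to 1056 and 1158 (log2 fold change −0.27, SE 0.06, limma, Benjamini-Hochberg adjusted p 0.0147). Nr4a1, named here after its values were seen, was at 119 and 104 in the controls and at 124 and 124 with DcpS shRNA (log2 fold change 0.16, SE 0.15, not called). The call of Nr4a3 ended without control 2, without DcpS shRNA 1 and with DESeq2.

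**Figure D2:**
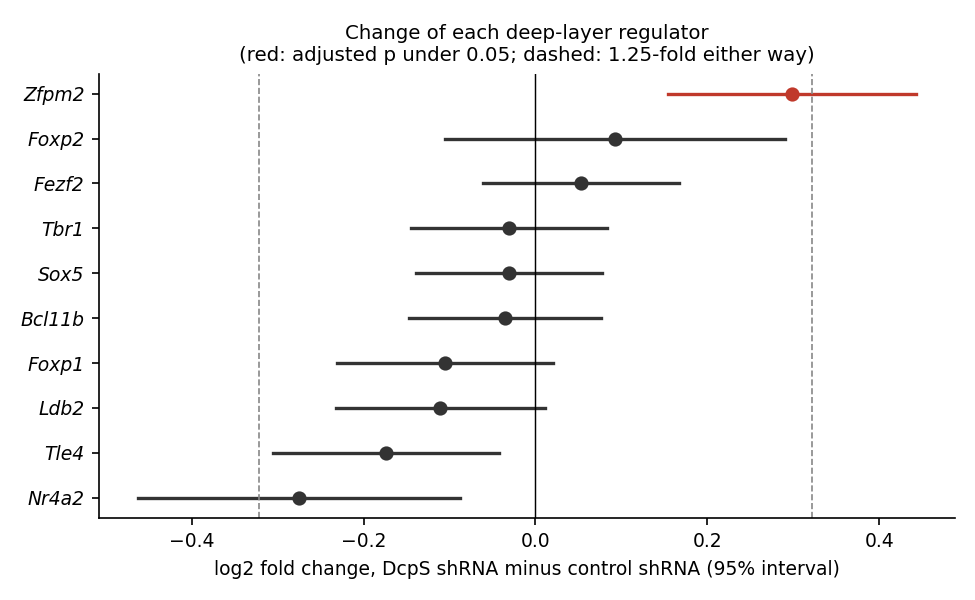
Log2 fold change of each regulator, DcpS shRNA minus control shRNA (horizontal axis), with its 95% confidence interval as a bar, ordered by size, from limma with 2 libraries per group. Only Zfpm2, in red, passed the adjusted p of 0.05, at 0.30, and 8 of the 10 intervals lie between the dashed lines at 1.25-fold either way.

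Levels were compared between genes as CPM per kilobase of annotated exon (RPKM), as a mean and SD over the 4 libraries. Fezf2 (34.72 ± 0.95) and Tbr1 (32.04 ± 1.02) were the most abundant, followed by Ldb2 (22.1 ± 1.10), Tle4 (19.8 ± 1.81), Bcl11b (13.9 ± 0.235) and Sox5 (12.5 ± 0.217). Nr4a2 (5.53 ± 0.695), Zfpm2 (4.61 ± 0.571) and Foxp1 (4.56 ± 0.221) formed a lower group, and Foxp2 was lowest (1.06 ± 0.0564). Neighbours whose libraries overlapped were Fezf2 and Tbr1, Ldb2 and Tle4, Nr4a2 and Zfpm2, and Zfpm2 and Foxp1. The order depends on the length used, since Sox5, Foxp1 and Foxp2 have many annotated exons. Per kilobase of the longest coding transcript, Tbr1 (44.2) came before Fezf2 (43.6), Sox5 (24.7) came close to Tle4 (24.9) and ahead of Bcl11b (13.9), and Foxp1 (8.74) and Zfpm2 (7.59) came ahead of Nr4a2 (6.30). Foxp2 stayed lowest at 2.56. The depth was enough to count even this gene with 306 to 404 reads per library.

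**Figure D3:**
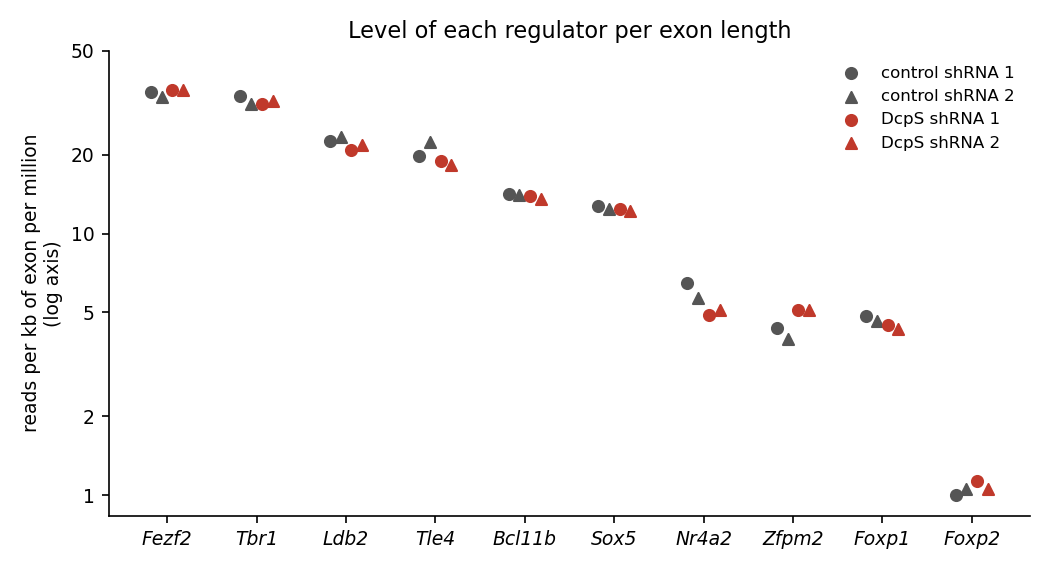
Level of each regulator in each library in RPKM, on a log axis, ordered by the mean. Marks are as in the plot of libraries, and the genes run from Fezf2 at 34.72 to Foxp2 at 1.06, a spread far wider than any gene's spread across libraries.

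Other genes of subcerebral neurons included 4 that fell, among 16 tested, with 12 not passing and a list median of −0.10. These were Etv1, a layer V transcription factor, at 496 and 565 normalised read counts in the controls and at 394 and 346 with DcpS shRNA (log2 fold change −0.52, SE 0.09, limma, Benjamini-Hochberg adjusted p 0.00291), Crym, a thyroid hormone-binding protein (−0.67, SE 0.15), S100a10, a calcium-binding protein family member (−0.73, SE 0.20), and Crim1, a membrane protein of corticospinal neurons (−0.30, SE 0.08). Each of these falls was larger than any difference among the 10 regulators, that of Crim1 only just. Without control 2, or with DESeq2, only 1 gene of this list was called in each fit. The calls of Crym, S100a10 and Crim1 ended in both, and those of S100a10 and Crim1 also without DcpS shRNA 2.

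Of 14 tested corticothalamic and subplate genes, 1 rose, 1 fell and 12 did not pass, with a list median of 0.09. Hs3st4, a heparan sulfate sulfotransferase of layer VI neurons, was at 854 and 959 normalised read counts in the controls and at 1084 and 1167 with DcpS shRNA (log2 fold change 0.31, SE 0.07). Its rise was of the same size as that of Zfpm2. Ccn2, a matricellular protein made by subplate neurons and also by fibroblasts, was at 113 and 137 in the controls and at 77.2 and 68.2 with DcpS shRNA (−0.77, SE 0.17). DESeq2 called neither. The call of Hs3st4 also ended without control 1 and that of Ccn2 without control 2.

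Among 14 callosal and upper-layer regulators, which oppose the deep-layer program, 0 rose and 2 fell: Ski, a corepressor needed for callosal projection neuron identity (log2 fold change −0.28, SE 0.06), and the POU factor Pou3f2 (−0.25, SE 0.06). Both have 1 match of the words in their 3′ UTR. Among the called genes of the other lists, Ebf1 and the astrocyte marker Gja1 have 1 match and the mural marker Acta2 has 2. Each word is counted separately here, so that Dcps and Sox5, with the words joined, also count 2. Whether the 2 in Acta2 are joined is not given here. The median of the callosal and upper-layer list was −0.13. The calls of both Ski and Pou3f2 ended without control 1. That of Pou3f2 also ended without DcpS shRNA 1 and with DESeq2.

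Paralogs and partners of the regulators, 25 of them tested, gave 0 higher and 2 lower, Nr4a3 and Sox4, a SoxC factor of young neurons (log2 fold change −0.23, SE 0.05), with a list median of 0.04. The call of Sox4 ended without either control. Of 11 immediate early genes tested, a list on which Nr4a3 also stands, Arc, a synaptic protein induced by activity, rose (0.92, SE 0.26) at 24.7 and 39.0 normalised read counts in the controls and at 69.1 and 51.4 with DcpS shRNA. The list median was 0.07, and 9 genes did not pass. The call of Arc ended without control 1, without DcpS shRNA 1, with DESeq2 and with the genes that carry a word left out.

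**Figure D4:**
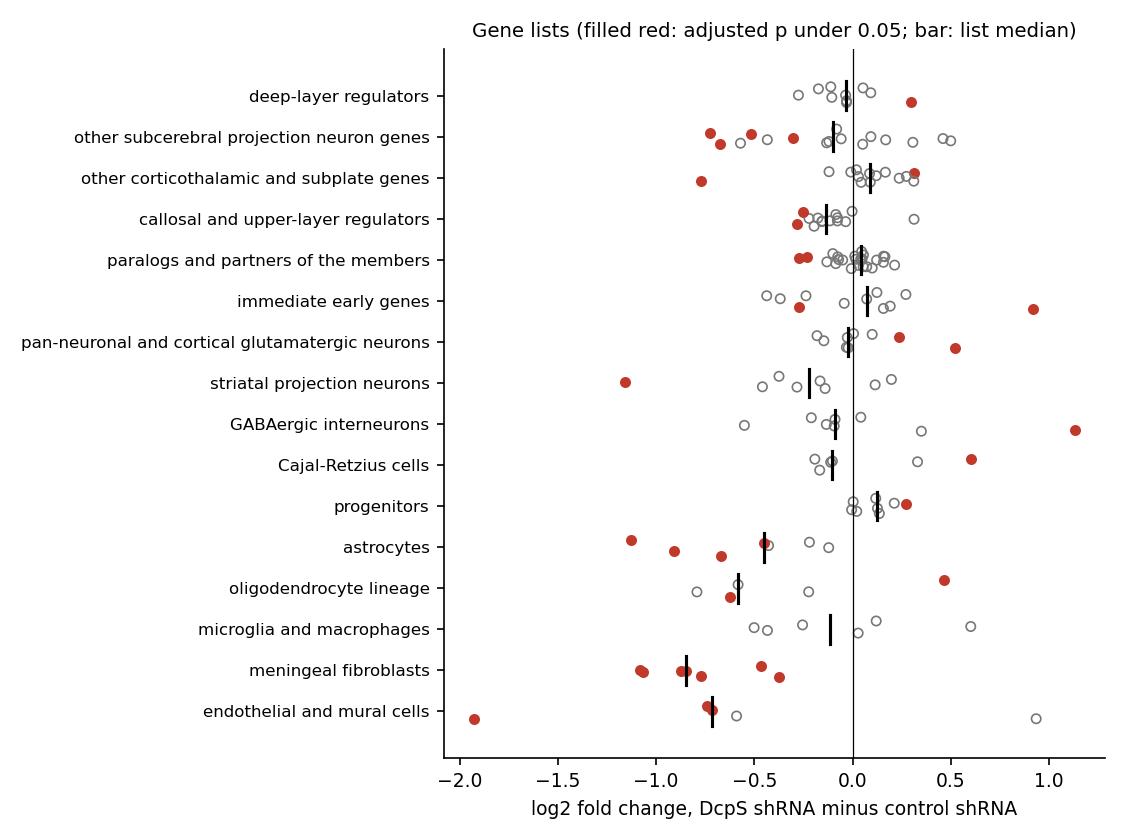
Log2 fold change of each tested gene, DcpS shRNA minus control shRNA, by gene list, with filled red points for an adjusted p under 0.05 (limma) and a black bar at each list's median. The deep-layer regulators cluster around 0, with a median of −0.03, while the fibroblast markers lie to the left, with a median of −0.85.

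Cell type markers bear on where the regulators' RNA came from. Pan-neuronal and cortical glutamatergic markers summed to 4848 and 4767 CPM in the controls and to 4675 and 4613 CPM with DcpS shRNA, and their median log2 fold change was −0.02. Of the 9 markers 7 did not pass and 2 rose, Slc17a7, a vesicular glutamate transporter (log2 fold change 0.52, SE 0.06), and the neuronal splicing factor Rbfox3 (0.24, SE 0.06, a call that ended without control 2, without DcpS shRNA 2 and with DESeq2). Of the 9, 3 lay above and 2 below both controls in both DcpS shRNA libraries, against 48.4% of all genes tested with groups apart. The 2 lower ones, Neurod6 (−0.18, SE 0.05) and Dcx (−0.15, SE 0.05), were not called. Striatal projection neurons also use Foxp1, Foxp2 and Bcl11b, but 7 of 11 of their markers were under 1 CPM, and 1 of 8 tested fell, the transcription factor Ebf1 (−1.16, SE 0.30), a call that ended without control 1, without DcpS shRNA 2 and with DESeq2. The list summed to 11.9 and 13.2 CPM in the controls and to 10.6 and 11.3 CPM with DcpS shRNA. Cajal-Retzius cells, early-born neurons that also express Tbr1, had markers that summed to 430 CPM in each control and to 433 and 394 CPM with DcpS shRNA. Of these 6 markers 1 rose, the basic helix-loop-helix factor Nhlh2 (0.60, SE 0.08), and 5 did not pass. The list median was −0.11. Most of the summed CPM came from 1 marker, Reln, with a mean of 368 CPM over the 4 libraries. GABAergic interneuron markers summed to 18.2 to 19.3 CPM over the 4 libraries, with a median log2 fold change of −0.09. Over all genes tested, 48.4% had groups that did not overlap. Of the 8 interneuron markers 3 were lower and 1 was higher in both DcpS shRNA libraries than in both controls. The higher one, the neuropeptide Npy, was the only one called (1.13, SE 0.24), and DESeq2 did not call it.

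Fibroblast markers fell in all 7 cases, from 592 and 657 CPM summed in the controls to 361 and 344 with DcpS shRNA, and 4 of 7 astrocyte markers fell, from 351 and 372 CPM to 287 and 299. DESeq2 did not call the fibroblast markers Dcn and Lum or the astrocyte marker Aqp4. The calls of Lum, Aqp4 and the astrocyte marker Gfap ended without control 2 and without DcpS shRNA 1. That of Dcn ended without control 2, and that of the fibroblast marker Fbn1 with no filter on low counts. Endothelial and mural markers fell in 3 of 5 tested cases, Acta2, Pdgfrb and Kdr, and the call of Kdr ended without control 2 and with DESeq2. The defining endothelial genes Cldn5, Pecam1 and Cdh5 were under 1 CPM, and Cldn5 was not tested. Pecam1 was higher in both DcpS shRNA libraries than in both controls (log2 fold change 0.93, SE 0.44) but was not called. Cdh5 was not called either (−0.59, SE 0.68), and its groups overlapped. Among 8 progenitor markers Nes, an intermediate filament gene, rose (log2 fold change 0.27, SE 0.06, a call that ended without either control), and sums were 1686 and 1737 CPM in the controls and 1859 and 1715 CPM in the DcpS shRNA libraries. Of the oligodendrocyte lineage markers, Sox10 was under 1 CPM and not tested. Of the 5 tested, the myelin gene Mbp rose (0.47, SE 0.12) and the receptor gene Pdgfra fell (−0.63, SE 0.14), and DESeq2 called neither. The call of Mbp also ended without control 1 and without DcpS shRNA 2, and that of Pdgfra without control 2. Among 6 microglia and macrophage markers 0 were called by limma, edgeR or DESeq2, and 0 had an unadjusted p under 0.05 in limma. In bulk RNA, fewer cells of a type and less RNA per cell cannot be told apart. The part of these markers in the values of Zfpm2, Ccn2, Crym and S100a10 was not tested.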

How the data were processed

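The deposited values are a signal of gene read counts that the authors divided by 1 size factor per library, as the values show: within a column, all values are multiples of the smallest one above 0, and dividing by it gave whole reads for 100% of values (tolerance 0.001). The implied factors equalled median-of-ratios factors. Per the submitters' processing notes, HISAT2 2.2.0, SAMtools 1.3.1, Picard, featureCounts and DESeq2 were used with GRCm38. The sources used here do not give the annotation, the use of strand or the treatment of shared reads.

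The comparison across all genes used limma 3.58.1 on log2(normalised read count + 1), with group as the only term, an intensity trend, a robust fit and two-sided Benjamini-Hochberg adjustment over 18110 genes kept by filterByExpr of edgeR 4.0.16 (minimum count 10). Fold changes on this scale understate low genes. edgeR's quasi-likelihood test on the recovered reads called 1045 genes, and limma 1048. DESeq2 1.42.0 was another alternative. The fit was tested on simulated data. Libraries of a group differed by more than sampling noise (chi-square per degree of freedom 2.04 and 3.73). Positions, lengths and 3′ UTRs are from GENCODE M21, which may not be the authors' annotation. The genes described and the lists were chosen with earlier results of these data known. All 10 regulators are named, and from each list up to 6 called genes.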

Additional observations from a re-analysis of the deposited data

How the results depend on the processing

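Each result was recomputed under 14 alternatives, and 1 more, added after seeing the data, left out the 1097 tested genes with a word in the 3′ UTR; leave-one-out fits kept the same 18110 genes. Zfpm2 stayed called in 12 of 15, with a log2 fold change of 0.23 to 0.37. Its call ended with DESeq2, without control 2, and in limma with neither trend nor robust fit, where 0 genes in all passed (2538 at an unadjusted p under 0.05; 0 regulators, 2 unadjusted). The same setting also ended the call of Dcps. DESeq2 called 448 genes and 0 regulators. The library left out gave 594 to 1439 called genes and 0 to 1 called regulators. Of the 10 regulators only Tbr1 changed sign, its log2 fold change running from −0.079 without control 2 to 0.0177 without control 1. No scaling alternative turned the sign of a regulator.

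The titles number the cultures 1 and 2 in each group after the word set, and the labels do not say that a number marks a shared preparation. Deviations of same-numbered libraries correlated at 0.0429 over 18110 genes, and 2 pairs cannot settle a pairing. With the replicate block, limma called 1626 genes and 3 regulators, adding Nr4a2 (limma, Benjamini-Hochberg adjusted p 0.0276) and Tle4 (0.0493) to Zfpm2, and edgeR called 1405 genes and 2 regulators, Zfpm2 and Nr4a2 (0.0341). The regulators had at least 306 reads per library. Standard errors were larger in those with the fewest reads, 0.093 for Foxp2 and 0.088 for Nr4a2, than in those with the most, 0.051 for Sox5 and 0.054 for Tbr1.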
